A study of Xenopus laevis with 4 samples.

Results

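The genes described here encode chordin, ADMP, sizzled and other secreted or membrane regulators of bone morphogenetic protein (BMP) signalling. They were followed across 4 explants of the Xenopus laevis gastrula. The members were the probe sets whose single symbol in the platform annotation was chrd.1.S, nog.L, fst.L, admp.S, szl.L, szl.S, tll1.S, bambi.L or bmp7.1.L. This gave 9 of the 7531 genes named on the array, read by 11 probe sets. This frog is allotetraploid, and the suffixes .L and .S name the subgenome with the longer or the shorter chromosomes. The szl.L and szl.S genes are thus homeologous copies of sizzled.

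Embryos were at stage 10, the onset of gastrulation, and each explant was hybridised once. The animal cap is the prospective ectoderm, and the vegetal explant is the yolky prospective endoderm. The dorsal marginal zone holds the Spemann organizer, and the ventral marginal zone lies opposite it along the equator. The labels name no treatment, and they do not give the number of embryos behind an explant. The submitters aimed to predict expression patterns by comparing such explants. With 1 array per explant there is no replicate error and no test, so every difference below is a difference between 2 arrays.

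In the gastrula, BMP ligands diffuse through the extracellular space and specify ventral fates, while the organizer secretes antagonists that bind the ligands and keep them from their receptors. Chordin is the organizer antagonist that tolloid metalloproteases cleave, which releases the bound ligand again. Sizzled, a ventrally made protein related to the secreted Frizzled proteins, blocks these proteases. ADMP is a BMP-type ligand made on the dorsal side, where BMP signalling represses its transcription, whereas sizzled and the pseudoreceptor BAMBI are switched on by BMP signalling.

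Values are linear array signals without further scaling. Signals at or below a floor of 24.7, the 20th percentile of all values, were raised to it before folds were taken, and a fold against the floor is given as "at least". A gene entered a comparison when its higher level reached 147, the median of all values, and a difference counted from 2-fold upwards. Of the 9 members, 7 had a probe set at or above 147 in some explant, and nog.L and fst.L had none. A gene that enters only through the explant where it is bright is likely to differ, and entry then fixes the direction. The counts below thus describe the members that could be measured.

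The explants carried their own marker genes. All 8 organizer probe sets that passed the filter were highest in the dorsal marginal zone, all 7 epidermal ones in the animal cap and all 9 endodermal ones in the vegetal explant. Of the 4 ventral markers, evx1.L and msgn1.L were highest ventrally and ventx3.2.S and wnt8a.L vegetally. Of 5 probe sets for genes of the whole marginal ring (tbxt, aplnr and fgf8), 3 were highest dorsally and 2 ventrally. Like the other gene lists, the markers were chosen with earlier results of these data known, so these counts are descriptive. The organizer markers were not confined to the dorsal marginal zone. Of the 8 organizer probe sets, 7 also reached 147 in the vegetal explant. The 8 summed to 9581 there, against 13010 dorsally. Whether the dissected territories overlapped was not tested. The epidermal markers summed to 13380 in the animal cap, 7194 ventrally and 2337 dorsally. In whole explants, fewer cells making an RNA and less RNA per cell cannot be told apart.

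**Figure D1:**
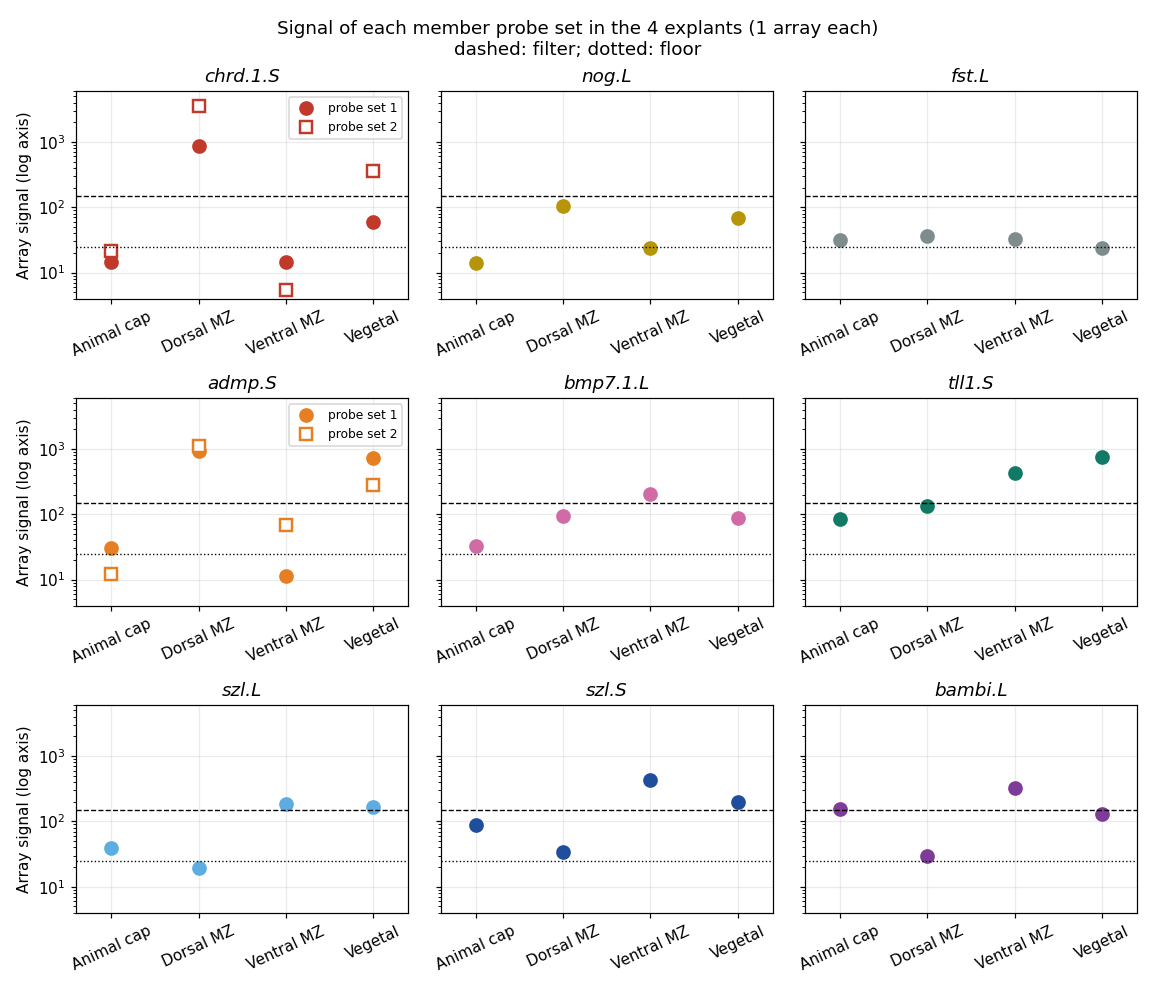
Signal of each member probe set (log axis) in the animal cap, dorsal marginal zone (MZ), ventral marginal zone and vegetal explant, with 1 array per explant and no error bars. The dashed line is the filter at 147 and the dotted line the floor at 24.7. The chrd.1.S and admp.S probe sets are highest dorsally, szl.L, szl.S, bambi.L and bmp7.1.L ventrally and tll1.S vegetally, while nog.L and fst.L stay below the filter.

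Among the antagonists, chordin RNA was concentrated dorsally. One of the chrd.1.S probe sets had a signal of 3523 dorsally, 360 vegetally, 21.2 in the animal cap and 5.36 ventrally. The other read 854.6, 59.6, 14.3 and 14.3 in the same order. Both placed the RNA in the dorsal marginal zone first and the vegetal explant next, with the animal cap and the ventral marginal zone under the floor. The dorsal signal was at least 143-fold and at least 34.6-fold above the ventral one on these probe sets, and exceeded the vegetal one 9.79-fold and 14.3-fold. The probe sets therefore shared the highest and next highest explants, with the others unordered under the floor. They differed in brightness and in the size of the bound.

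Chordin was lower in the vegetal explant, relative to the dorsal marginal zone, than the organizer markers were. The dorsal signals of the 8 organizer marker probe sets were 1.03-fold to 2.48-fold their vegetal signals, with gsc.L (goosecoid) at 2.48-fold and 2.43-fold and otx2.L at 1.03-fold and 1.21-fold. Taken over its probe sets, chrd.1.S differed 11.8-fold (3.57 on the log2 scale) and ranked 9 among 4844 genes measured in both explants. In this comparison, paired probe sets of single genes disagreed with an SD of 0.65 on the log2 scale over 682 genes. That SD holds no error between dissections or hybridisations, because both probe sets are read on the same arrays.

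Noggin, another BMP-binding protein of the organizer, stayed dim. The nog.L signal was 105.6 dorsally, 68.1 vegetally, 23.8 ventrally and 14.1 in the animal cap. As for chordin, the dorsal signal came first and the vegetal next, but the dorsal signal lay at percentile 44.4 of its array. Follistatin, which binds activin and also BMPs, had fst.L signals of 36.8 dorsally, 32.7 ventrally, 31.5 in the animal cap and 23.8 vegetally. These 4 values lay close to the floor, the vegetal one below it, so a regional difference of fst.L was not measurable on these arrays.

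Of the ligands, ADMP was dorsal and vegetal. An admp.S probe set read 931.9 dorsally, 715.1 vegetally, 30.2 in the animal cap and 11.5 ventrally. The other read 1121, 276.1, 12.0 and 68.9. Both were highest dorsally and next highest vegetally, and they disagreed on which of the remaining explants was lowest. They also disagreed on the step from dorsal to vegetal, which was 1.30-fold on the former and 4.06-fold on the latter, below and above the 2-fold rule. The dorsal signal was at least 37.7-fold above the ventral one on the former and 16.3-fold, measured on both sides, on the latter. Their mean on the log2 scale gave at least 24.8-fold, and 2.30-fold for dorsal over vegetal, a call that rests on the latter probe set. The dorsal to vegetal step of 1.30-fold lay inside the range of the organizer markers and that of 4.06-fold above it.

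The bmp7.1.L gene, which encodes a BMP7 ligand, was lowest in the cap and highest ventrally. Its signal was 205.4 ventrally, 92.9 dorsally, 88.4 vegetally and 33.0 in the animal cap. Only the ventral signal passed the filter. It was 2.21-fold above the dorsal, 2.32-fold above the vegetal and 6.23-fold above the cap signal, whereas dorsal and vegetal signals lay within 1.05-fold of each other. The dorsal minus ventral difference was -1.14 on the log2 scale. The robust SD among the 1546 dimmest genes in that comparison was 0.36, a spread over genes and not the error of this difference.

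The tolloid-like protease gene had its peak elsewhere. The tll1.S signal was 763.4 vegetally, 426.4 ventrally, 132.3 dorsally and 84.2 in the animal cap. The vegetal and ventral signals lay within 1.79-fold of each other, as did the dorsal and cap signals, at 1.57-fold. Between these pairs, the ventral signal exceeded the dorsal one 3.22-fold and the cap one 5.07-fold. Of the members past the filter, only tll1.S was highest vegetally.

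Both homeologs of the protease inhibitor sizzled were lowest dorsally. The szl.S signal was 433.4 ventrally, 197.2 vegetally, 87.7 in the animal cap and 34.1 dorsally. Each step of this order was between 2.20-fold and 2.58-fold. The step between cap and vegetal explant fell just below 2-fold when arrays were centred on their medians or quantile normalised (-0.96 on the log2 scale, against -1.17).

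The other homeolog, szl.L, read 186.0 ventrally, 166.5 vegetally, 38.6 in the animal cap and 19.1 dorsally. The order was that of szl.S, but the ventral and vegetal signals lay within 1.12-fold of each other, and the larger step of 4.32-fold came between the vegetal explant and the cap. The ventral signals were 12.7-fold (szl.S) and at least 7.53-fold (szl.L) above the dorsal ones. How far the probe sets of these similar copies share target RNA was not tested. The array also held 2 probe sets annotated to both homeologs of sizzled or of bambi, which the choice of members left out.

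BAMBI, a receptor-like protein without a kinase domain that dampens BMP signalling, was lowest dorsally as well. The bambi.L signal was 329.0 ventrally, 157.3 in the animal cap, 131.2 vegetally and 29.5 dorsally. The cap and vegetal signals lay within 1.20-fold of each other. The ventral signal was 11.1-fold above the dorsal one, 2.51-fold above the vegetal one and 2.09-fold above the cap one. That last difference was 1.06 on the log2 scale, and 0.98 with arrays centred on their medians or quantile normalised, under the 2-fold rule. The probe set of the homeolog bambi.S stayed below the filter, at 111.4 ventrally, 109.6 vegetally, 66.1 in the cap and 18.1 dorsally.

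Set side by side along the dorsal-ventral axis, the members fell on opposite sides. Of the 9 members, 7 could be compared between the marginal zones: chrd.1.S and admp.S were 2-fold or more higher dorsally, and szl.L, szl.S, tll1.S, bambi.L and bmp7.1.L ventrally. Among all 4638 genes compared, 1.34% were that much higher dorsally and 1.16% ventrally, or 2.50% either way. Each of the 7 members passed the filter only in the marginal zone where it was higher, so entry fixed the direction of each. Without the filter nog.L joined the dorsal members, so that 8 of 9 passed 2-fold, against 3.04% of all 7531 named genes. Among the 4631 genes measured above the floor on the lower side, szl.S had rank 2 of the ventral differences, bambi.L rank 4, tll1.S rank 18 and bmp7.1.L rank 42. The smallest member difference was the -1.14 of bmp7.1.L. Paired probe sets of single genes disagreed here with an SD of 0.42 on the log2 scale (631 genes). Such pairs share the same 2 arrays, so this SD holds no error between dissections or hybridisations. The paired member probe sets gave at least 5.24 and 4.02 for admp.S, and at least 7.16 and at least 5.11 for chrd.1.S.

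The side on which all called genes fell depended on the scaling: 53.4% of them were higher dorsally as deposited and 33.3% with arrays scaled to the hybridisation controls. The controls differed by 0.19 on the log2 scale between these arrays, and that scaling moved the median of all genes from -0.015 to -0.208. The 7 members kept their side under each scaling tried, but the shifts were too small to change it. For bmp7.1.L, with the smallest difference, the scalings gave -1.1 to -1.33 on the log2 scale.

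**Figure D2:**
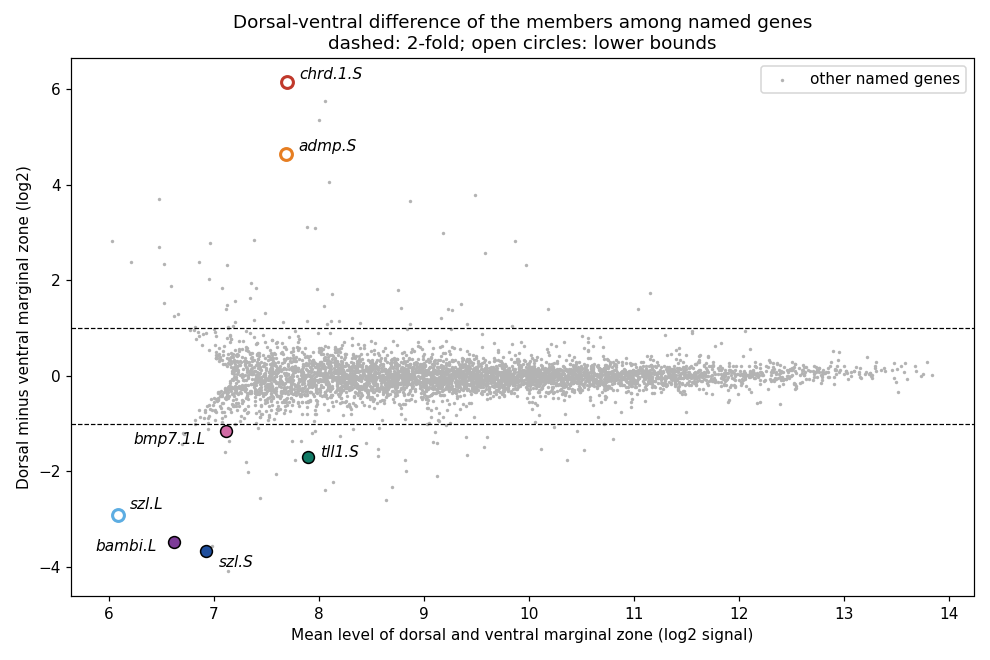
Dorsal minus ventral marginal zone difference (log2) against the mean level of both (log2 signal) for the 4638 named genes compared. Each grey point is a gene, dashed lines mark 2-fold, and open circles mark members whose lower side lies at the floor. The chrd.1.S and admp.S genes lie far above the cloud, and szl.S, bambi.L and szl.L far below it, with tll1.S and bmp7.1.L nearer to it.

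Epidermal markers moved with the ventral members. Of the 7 epidermal probe sets, 6 were between 2.61-fold and 5.86-fold higher in the ventral than in the dorsal marginal zone, and krt12.4.S was at least 1.78-fold higher there. Their part in the ventral signals of the members was not tested. The animal cap signal was below the ventral one for each of the 5 ventral members, by 2.09-fold for bambi.L and by 4.82-fold to 6.23-fold for the others.

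Against the animal cap, the ventral marginal zone was higher for the 5 members that could be compared. The background was 3.11% of 4627 genes higher ventrally and 1.06% in the cap. Of the 5 members, only bambi.L also passed the filter in the cap. For szl.L, szl.S, tll1.S and bmp7.1.L, which passed it ventrally only, entry fixed the direction. Without a filter all 9 members entered, and 5 were 2-fold or more higher ventrally and 0 in the cap. Of all 7531 genes, 241 were then that much higher ventrally and 97 in the cap, so 71.3% of called genes were on the ventral side. With the filter, 74.6% of called genes were on the ventral side as deposited. The share was 62.8% with arrays centred on their medians and 84.3% with hybridisation control scaling. With median centring or quantile normalisation bambi.L fell under 2-fold, which left 4 members. The dorsal marginal zone was above the cap for chrd.1.S (at least 70.3-fold) and admp.S (30.9-fold on a probe set and at least 45.4-fold on the other) and below it for bambi.L (5.33-fold), with backgrounds of 3.43% and 2.05% of 4629 genes. In that comparison chrd.1.S and admp.S passed the filter dorsally only and bambi.L in the cap only, so entry fixed each direction. None of the 7 measured members had its highest level in the animal cap. For tll1.S and bmp7.1.L the cap level was the lowest of the 4, chrd.1.S lay at the floor both there and ventrally, and the admp.S probe sets disagreed.

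Along the animal-vegetal axis, 4 of the 5 comparable members were higher vegetally. These were admp.S (23.7-fold on a probe set and at least 11.2-fold on the other), tll1.S (9.07-fold), szl.L (4.32-fold) and szl.S (2.25-fold), and bambi.L did not reach 2-fold. Those 4 reached 147 vegetally only and bambi.L in the cap only, so entry fixed the direction of each. The chrd.1.S gene was not counted because its mean vegetal level of 146.5 missed the filter. Its brighter probe set was at least 14.6-fold higher vegetally, so that the count was 5 of 6 with the brightest probe set of each gene. Of all 4890 genes compared, 10.7% were higher vegetally and 7.22% on the cap side. That split followed the scaling too, with 40.3% of called genes on the cap side as deposited and 57.7% with median centring, which moved the median of all genes from -0.041 to 0.181.

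The vegetal explant held members from both sides of the dorsal-ventral axis. Against the dorsal marginal zone, szl.L (at least 6.74-fold), szl.S (5.79-fold) and tll1.S (5.77-fold) were higher vegetally, with a background of 8.70% of 4864 genes, and chrd.1.S and admp.S higher dorsally, with a background of 6.17%. Against the ventral marginal zone, admp.S was higher vegetally, by at least 29.0-fold on a probe set and by a measured 4.01-fold on the other, with a background of 8.50% of 4881 genes. A chrd.1.S probe set was at least 14.6-fold higher vegetally there, but the gene's mean level did not reach the filter. In the same comparison szl.S, bambi.L and bmp7.1.L were 2.20-fold to 2.51-fold higher ventrally, with a background of 6.45%. The szl.L and tll1.S genes did not reach 2-fold there. Among the members past 2-fold, admp.S against the dorsal and szl.S against the ventral marginal zone reached 147 on both sides. For the others, entry fixed the direction. The share of called genes higher in the marginal zone moved from 41.5% to 52.8% with median centring for the dorsal explant, and from 43.2% to 60.8% with hybridisation control scaling for the ventral one. These comparisons share arrays, so they are not independent of each other.

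The likeness of profiles over the 4 explants was measured as the distance between log2 levels after each gene's mean was subtracted, a description with 4 points per gene. Of 4988 other named genes, the nearest to chrd.1.S was the member admp.S (distance 1.72), followed by gsc.L (1.95), the otx-related homeobox gene crx.L (2.32) and the Wnt antagonist gene dkk1.S (2.41). Nearest to admp.S were gsc.L (1.06), dkk1.S (1.18) and the head homeobox gene otx2.L (1.29), with chrd.1.S at rank 7. The floor enters the levels of chrd.1.S, admp.S, gsc.L, dkk1.S and otx2.L, and of szl.L, tbx3.S, evx1.L, slc4a1.L and tbx6.L below, so their distances and ranks depend on it. The neighbours of both dorsal members also had their highest level dorsally, which a choice by distance to these profiles favours.

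The sizzled copies were also near neighbours. The nearest gene to szl.S was szl.L (0.86), then bambi.L (1.11) and the homeobox gene msx1.L (1.13), with the T-box gene tbx3.S (1.49) and the homeobox gene evx1.L (1.56) next. For szl.L the nearest was tbx3.S (0.69), followed by szl.S (0.86), tll1.S (1.16), and sox9.S and gata2.L (both 1.18). Around bambi.L lay the krüppel-like gene klf17.1.S (1.03), szl.S (1.11), msx1.L (1.21) and klf17.L (1.40). The klf17 genes differ from bambi.L in having their highest level in the animal cap, at 1102 for klf17.1.S and 1527 for klf17.L.

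Other members had neighbours outside the set. Nearest to tll1.S were the anion exchanger gene slc4a1.L (0.49), tbx3.S (0.67) and gata3.S (0.68), all highest vegetally, and szl.L had rank 17. Nearest to bmp7.1.L were the ventral homeobox gene ventx2.2.L (0.30), the calpain gene capn8.1.L (0.51) and the T-box gene tbx6.L (0.51), all highest in the ventral marginal zone. The nearest member to bmp7.1.L was tll1.S, at rank 2504.

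**Figure D3:**
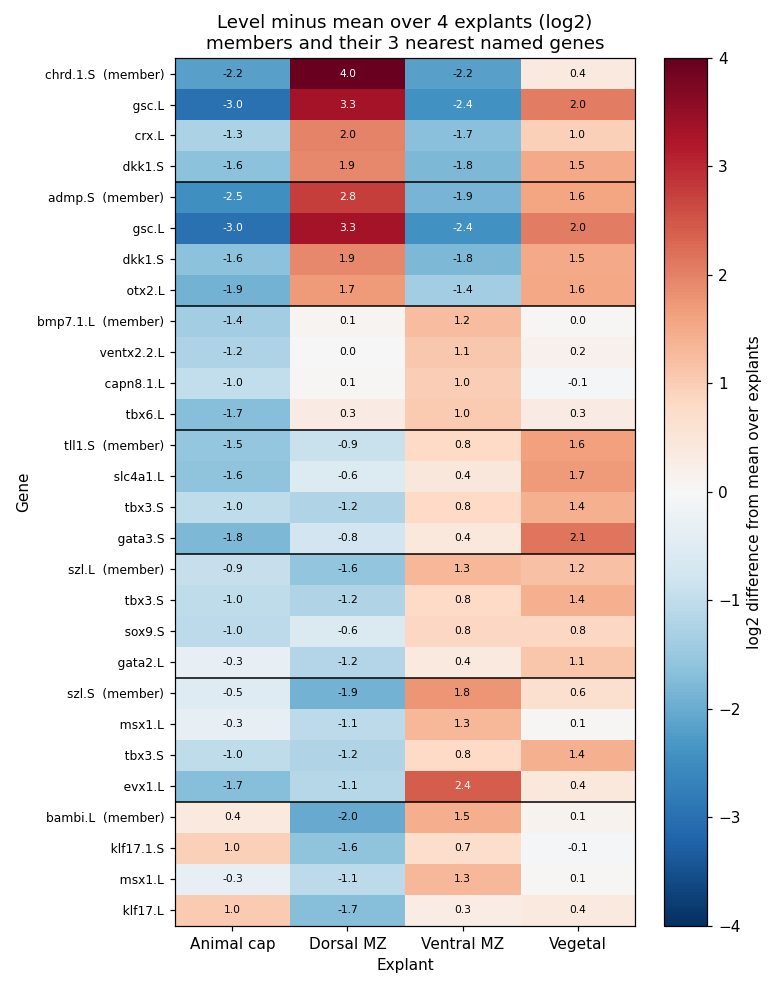
Heat map of log2 level minus the gene's mean over the 4 explants, for the 7 measured members and the 3 nearest named genes outside the set below each. Columns are explants with 1 array each, red is above and blue below the gene's own mean. The blocks of chrd.1.S and admp.S are red dorsally and vegetally, and those of szl.S and bambi.L are blue dorsally and red ventrally.

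The other genes of the BMP pathway gave the surroundings of these members. A list of ligands, antagonists, proteases, receptors, transducers and targets held 54 further genes on the array, of which 34 had a probe set past the filter. Between the marginal zones 32 could be compared: 14 (43.8%) were 2-fold or more higher ventrally, 2 (6.25%) dorsally, and 16 neither, where 1.16% and 1.34% of all genes compared were that much higher ventrally and dorsally. The list median was -0.86 on the log2 scale against -0.015 over all 4638 genes. Among the targets, 12 of 16 were higher ventrally and none dorsally. The list was chosen with earlier results of these data known, and homeologs such as dlx3.L and dlx3.S count separately. The target ventx3.2.S was also among the ventral markers. These shares are therefore descriptive. None of the 4 other genes for proteases or their cofactor (bmp1.L, bmp1.S, tll2.L and pcolce.S) reached the filter.

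The ligand genes had different regional patterns. For bmp4.S, the signal was 825.6 ventrally, 741.4 in the animal cap, 539.9 vegetally and 364.1 dorsally. It was 2.27-fold higher ventrally than dorsally, and the ventral and cap signals did not differ by 2-fold. The bmp2.S signal was 655.8 vegetally and 228.1 ventrally, 147.9 dorsally and 102.9 in the cap, a vegetal excess of 6.37-fold over the cap. Its homeolog bmp2.L, named after its value was seen, also peaked vegetally at 540.5.

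The numbered copy bmp7.2.L ran differently from bmp7.1.L. Its signal was 4890 in the animal cap, 4653 ventrally, 3564 dorsally and 620.9 vegetally. The cap was thus the highest explant for bmp7.2.L, 7.88-fold above the vegetal one, and the lowest for bmp7.1.L. Between the marginal zones bmp7.2.L differed 1.31-fold, short of 2-fold.

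Among the other antagonists, only cer1.S and twsg1.L could be compared. Cerberus, which binds nodal, Wnt and BMP ligands, had a cer1.S signal of 2740 vegetally, 2236 dorsally, 446.6 ventrally and 24.7 in the cap. It shared the dorsal excess over the ventral marginal zone with chordin (5.01-fold), but its vegetal signal was not below its dorsal one. The twisted gastrulation gene twsg1.L, whose product binds chordin and BMPs, stayed between 491.3 and 595.6 in the 4 explants.

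Of the receptor and transducer genes that could be compared, rgma.L and smad7.L passed 2-fold between the marginal zones. The coreceptor gene rgma.L was 2.12-fold higher dorsally (392.2 against 185.2). The type I receptor genes acvr1.L and acvr1.S were 1.92-fold and 1.41-fold higher dorsally, short of 2-fold, and acvr1.L was 3.17-fold higher vegetally than in the cap. The inhibitory SMAD gene smad7.L, a feedback gene of the pathway, was 2.50-fold higher ventrally (2818 against 1126), while smad9.S (1.83-fold ventrally) and the common mediator gene smad4.L (1.17-fold dorsally) did not reach 2-fold.

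The target genes with the largest ventral differences were ventx3.2.S (17.0-fold), msx1.L (5.22-fold) and dlx3.S (4.66-fold). They parted along the animal-vegetal axis. The highest explant was vegetal for ventx3.2.S (1959), ventral for msx1.L (609.4) and the animal cap for dlx3.S (1158), which lay at the floor vegetally. Of these, msx1.L was among the 3 nearest genes outside the set for both szl.S and bambi.L, by the distances above.

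**Figure D4:**
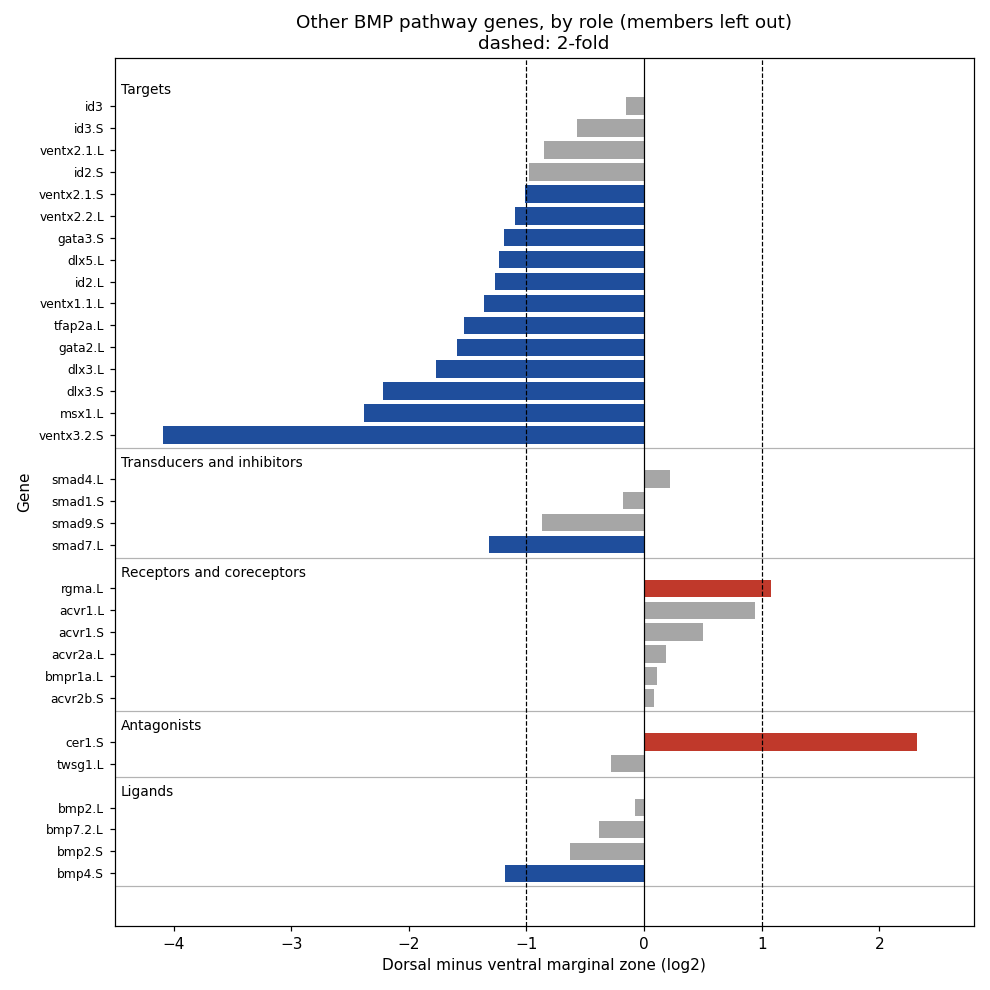
Dorsal minus ventral marginal zone difference (log2) of the 32 other BMP pathway genes that could be compared, grouped by role. Each bar is a gene on 1 array per explant, dashed lines mark 2-fold, red bars are 2-fold or more higher dorsally and blue bars ventrally. Of the 16 target genes 12 are blue, and cer1.S and rgma.L are the red bars.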

How the data were processed

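RNA of each of the 4 explants was cleared of DNA, and 100 ng was amplified and biotinylated with the Ovation system, per the labels' protocols. The deposited values are linear intensity signals of 15611 probe sets per array, and how probes were summarised is not given in the sources used here. The trimmed mean, without the lowest and highest 2% of values, was 499.8 on each array, so the authors' intensity values appear scaled to a common level. Array medians ran from 137 to 158 and spanned 0.21 on the log2 scale, under a limit of 0.3, so no scaling was added.

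Samples were grouped by title. Leaving aside 120 control probe sets, 9304 of the others had 1 gene symbol, and the 195 with several were not named. The gene identifiers of the 9 members matched the RefSeq table of Xenopus_laevis_v10.1. A gene's level was the mean log2 floored signal over its probe sets that reached the filter. Robust SDs are scaled median absolute deviations. The number of arrays limits the precision. Computation used Python 3.11.15 with pandas 2.3.3 and numpy 2.4.6, and was tested on simulated data.

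The members, gene lists and the rule for named genes were chosen with earlier results of these data known. The rule named the members, their copies, up to 3 pathway genes per role by dorsal minus ventral difference, and the 3 nearest genes to each member. Alternatives were other floors, scalings and filters and the brightest probe set. Sequences were not analysed here.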

Additional observations from a re-analysis of the deposited data

How the results depend on the processing

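Each count of members past 2-fold was recomputed with 8 alternatives: floors at the 10th and 30th percentiles, median centring, hybridisation control scaling, quantile normalisation, the brightest probe set, no filter, and a filter at 2 times the median. No member past 2-fold changed direction under any of them, although a floor or filter cannot reverse the difference of a probe set. The shifts made by the scalings were also too small to reverse a 2-fold difference. Using the brightest probe set could alter only chrd.1.S and admp.S among the members. The filter moved counts most. Between animal cap and vegetal explant 4 of 5 entered members passed 2-fold. The count was 7 of 9 without a filter and 2 of 2 with the higher one. Of all genes, 424 of 7531 were called on the cap side and 763 on the vegetal side without a filter. With the higher filter these were 294 and 375 of 3916. Between dorsal marginal zone and animal cap the count went from 3 of 3 to 6 of 9 without a filter. There 270 of all 7531 genes were called dorsally and 156 in the cap. With the higher filter the count went from 5 of 5 to 3 of 3 between dorsal marginal zone and vegetal explant. It did the same between ventral marginal zone and animal cap. Of all genes, 239 of 3897 were then called dorsally and 308 vegetally in the former comparison. In the latter, 86 of 3662 were called ventrally and 31 in the cap. The changes in member counts follow from how many members enter. The count between the marginal zones was 7 of 7, and ran from 5 of 5 with the higher filter to 8 of 9 without one. The count of pathway list genes past 2-fold there was 16 of 32, and ran from 13 with the higher filter to 19 without one. Of all genes, 39 of 3646 were called dorsally and 42 ventrally with the higher filter. Without a filter these were 119 and 110 of 7531. The size of differences against the floor followed the floor: for chrd.1.S between the marginal zones the log2 difference was 7.30, 6.13 and 5.28 with floors at the 10th, 20th and 30th percentiles. No paired analysis was possible because each explant has 1 array and no test was made. With 1 array each, a difference between explants cannot be separated from one between dissections or hybridisations.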
